A study of Mus musculus with 18 samples.

Results

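The mouse BCL2 family was examined in liver RNA-seq through 9 genes, chosen by symbol from the 19057 rows of the expression table: Bcl2, Bcl2l1, Mcl1, Bax, Bak1, Bid, Bad, Bbc3 and Bcl2l11. All 9 were present, and 8 were among the 10204 genes that passed the filter of a mean of at least 1 RPKM (read counts scaled to transcript length and library size). Bcl2 did not pass and was described separately. On GRCm38 (GENCODE vM21) all are protein-coding genes: Bcl2 at chr1:106538178-106714274, Bcl2l1 at chr2:152780668-152831728, Mcl1 at chr3:95658788-95663176, Bax at chr7:45461697-45466898, Bak1 at chr17:27019810-27029009, Bid at chr6:120891930-120916853, Bad at chr19:6941861-6951899, Bbc3 at chr7:16308393-16318205 and Bcl2l11 at chr2:128126038-128162547.

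Cell death through mitochondria is decided on the outer mitochondrial membrane. The guardians, the proteins of Bcl2, Bcl2l1 (BCL-XL) and Mcl1, hold back the effectors BAX and BAK1, which otherwise make pores and let cytochrome c leave the organelle. BH3-only proteins, among them those of Bid, Bad, Bbc3 (PUMA) and Bcl2l11 (BIM), sense stress and neutralize guardians or activate effectors, and released cytochrome c starts the caspase cascade. In hepatocytes, BCL-XL and MCL1 are both known to be needed for survival, BID links death receptors to mitochondria, and the family is also regulated by protein turnover, binding and modification, so that transcript levels do not give the amount of active protein.

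The 18 libraries came from male ICR mice and formed 6 groups of 3, all taken at 10 weeks of age. Con mice were given saline on the regular diet, and A10 mice received alginate oligosaccharide (AOS) at 10 mg/kg. HS mice received a high-fat diet and streptozotocin (STZ), a toxin of pancreatic beta cells, and HS+A10 mice received diet, STZ and AOS at 10 mg/kg. Recipient mice were put on that diet and STZ too and were then given small intestinal microbiota by mouth, from donors dosed with AOS at 10 mg/kg (A10-FMT) or from control donors (Con-FMT). The content of all donors of a group was pooled, so the 3 recipients of each kind shared 1 inoculum. For liver, the question was how the transplants affect a tissue damaged by diet and STZ. A10 and HS+A10 were known from the sample labels alone. The labels do not say that each library is a separate animal, so p-values measure the spread between libraries, which may be partly technical.

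The summed RPKM per library was 692818 to 806937, and the steps between low values put relative depth between 0.949 and 1.06 of the mean; the number of reads is unknown. Albumin and the other hepatocyte markers (6 of 6 present) summed to at least 37579 RPKM in every library. Con-FMT replicate 3 held 17819 RPKM of pancreatic acinar markers (9 of 9), against 14.1 to 50.0 in the other libraries. For 98.6% of the genes that differed at least 2-fold between the other two Con libraries, Con replicate 3 lay between them, and A10 replicate 3 did so for 96.3%, while the other 16 libraries did so for 6.52 to 74.6%. Member calls that changed without 1 of these 3 libraries are given with its name. Those lost without Con replicate 3 and A10 replicate 3 together are also given. The mean used for the filter is over all 18 libraries. In bulk tissue, fewer cells of a type and less RNA per cell cannot be told apart.

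For each comparison limma was run on the log2(RPKM + 1) values of all 18 libraries. The Benjamini-Hochberg adjustment covered the 10204 genes, and an adjusted p under 0.05 is named a call. The pseudocount of 1 makes changes of genes near 1 RPKM, such as Bcl2l11, look smaller. HS vs Con, A10-FMT vs HS, Con-FMT vs HS and HS+A10 vs HS share the HS libraries. Each comparison is therefore described by its own values.

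Promoters are shown for 3 members that were called in opposite directions or in different recipients, to show what their upstream sequence holds. These members have several start sites, and the window printed for each was picked because it holds a marked match. All 9 members had entries in the RefSeq promoter table (GRCm38.p6), 15 start sites in all, and the 250 bases before each start were searched on both strands. Capitals mark a match to the forkhead motif TGTTTAC or the NF-kB motif (GGG, any 2 bases, TTTCC), or their reverse complements, and each sequence is written 5′ to 3′ on the strand of its gene.

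Bbc3, chr7:16310011-16310260, plus strand: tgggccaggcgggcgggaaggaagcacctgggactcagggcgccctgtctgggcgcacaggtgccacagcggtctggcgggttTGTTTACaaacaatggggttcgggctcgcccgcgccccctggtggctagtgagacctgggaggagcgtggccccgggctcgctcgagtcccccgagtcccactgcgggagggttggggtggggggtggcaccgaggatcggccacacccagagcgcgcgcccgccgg

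Bcl2l11, chr2:128125788-128126037, plus strand: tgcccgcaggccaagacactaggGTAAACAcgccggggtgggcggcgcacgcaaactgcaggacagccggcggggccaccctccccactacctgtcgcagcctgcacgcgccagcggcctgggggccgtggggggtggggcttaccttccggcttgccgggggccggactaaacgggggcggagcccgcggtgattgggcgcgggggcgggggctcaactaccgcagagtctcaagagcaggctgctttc

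Bcl2l1, chr2:152830718-152830967, minus strand: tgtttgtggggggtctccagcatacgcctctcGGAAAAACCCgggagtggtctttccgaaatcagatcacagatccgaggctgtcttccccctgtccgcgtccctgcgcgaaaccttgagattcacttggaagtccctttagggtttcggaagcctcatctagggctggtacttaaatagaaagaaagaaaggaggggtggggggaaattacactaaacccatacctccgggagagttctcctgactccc

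The Bcl2l11 window ends at the annotated 5′ end of its gene, while the Bbc3 and Bcl2l1 windows precede internal start sites and lie within the span of the gene. The forkhead letters stood 167 bases before this Bbc3 start and 227 bases before this Bcl2l11 start. They were in no other window of the members, and 3.17% of 32851 promoter windows of the same length held them. The NF-kB letters stood 218 bases before this Bcl2l1 start, 28 bases before the Mcl1 start and 136 bases before another Bbc3 start, at chr7:16309333-16309582, and 1.41% of all windows held them. E-box letters (CACGTG) were found 9 bases before the Bax start and 64 bases before a further Bbc3 start, against 6.02% of all windows, and the STAT letters TTCNNNGAA were in none of the 15 windows, against 7.02%. These matches describe letters only, and their absence says nothing about a factor.

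Mcl1 and Bax had the highest levels of the family, with means over the 18 libraries of 28.3 and 27.7 RPKM, above those of 89.6% and 89.4% of the genes in the table. Bcl2l1 followed with 14.2 RPKM, Bad with 10.8 and Bak1 with 8.52. The BH3-only genes Bid, Bbc3 and Bcl2l11 were lower, at 3.57, 2.66 and 1.51 RPKM. Bcl2 was lowest at 0.217 RPKM, so that of these 3 guardians Mcl1 and Bcl2l1 had nearly all of the summed RPKM.

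**Figure D1:**
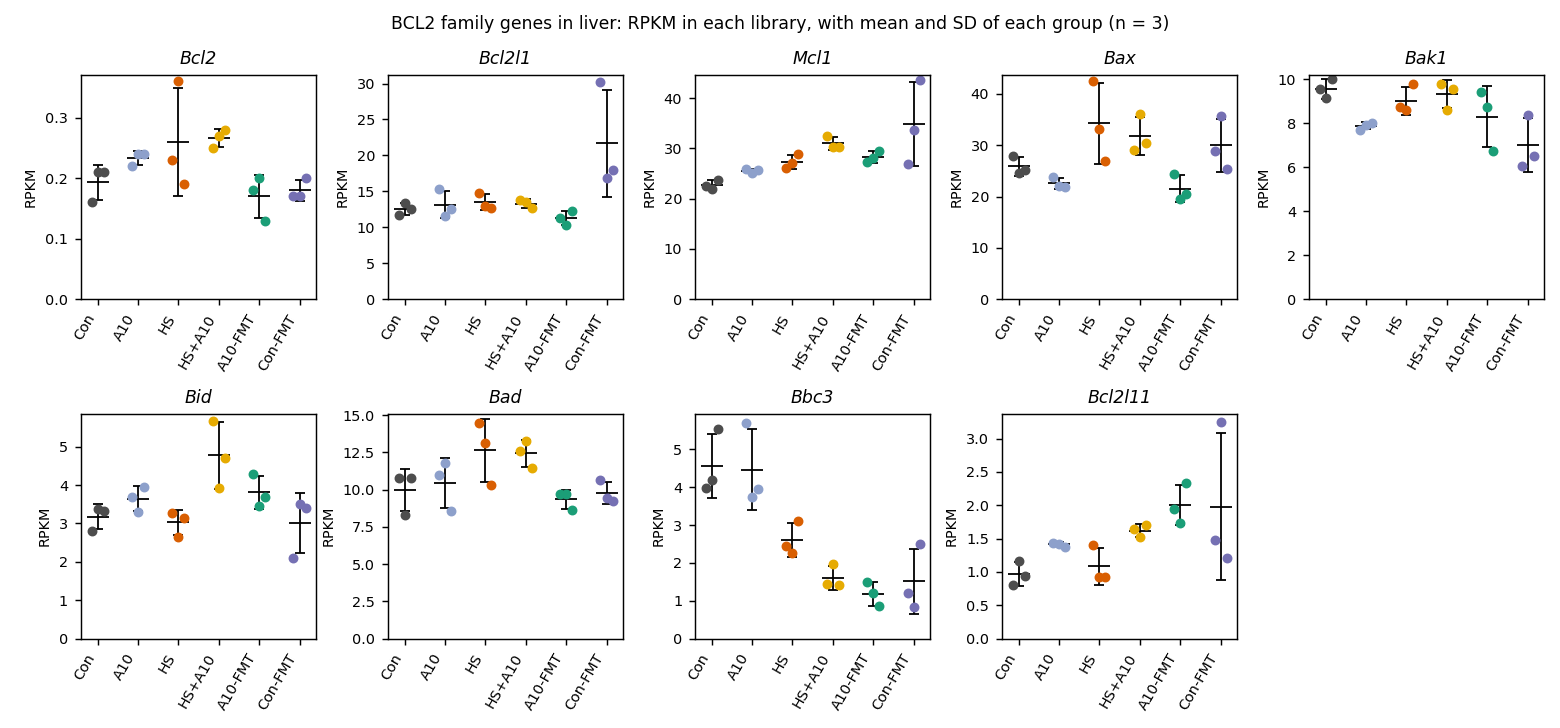
RPKM (vertical axes from 0) of the 9 BCL2 family genes in each library (points), with the mean and SD of each group (bars, n = 3). Bbc3 is lower in every library of the 4 groups with diet and STZ than in every Con and A10 library, and Bcl2l1 is highest in Con-FMT.

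In HS vs Con, 1 of the 8 tested members was called, and it was lower, against 17.7% of all tested genes called, 15.9% higher and 1.87% lower. In A10-FMT vs HS, 4 of 8 members were called (23.1% of all genes), 3 lower (21% of all genes) and 1 higher (2.09%). In Con-FMT vs HS, 2 of 8 were called (23.6%), 1 lower (19%) and 1 higher (4.61%). In HS+A10 vs HS, 1 of 8 was called, and it was higher (7.32% of all genes, 2.95% higher and 4.37% lower). In A10-FMT vs Con-FMT, 2 of 8 were called, both lower (18.8% of all genes, 6.72% higher and 12% lower). In HS+A10 vs A10, which was added after the data had been seen, 2 of 8 were called, 1 in each direction (20.9% of all genes, 13.6% higher and 7.28% lower). Outside A10-FMT vs HS, the number of members called was within 1 gene of the background share.

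In A10 vs Con, limma called none of the 8 members, against 0.0686% of all genes (0.049% higher and 0.0196% lower). At an unadjusted p under 0.05, Bak1 alone passed among them, against 13.9% of all genes. The 3 libraries of each group did not overlap for 2 of 8 members in HS vs Con (36.8% of all genes), 6 in A10-FMT vs HS (37.4%), 2 in Con-FMT vs HS (35%), 4 in HS+A10 vs HS (27.4%), 4 in A10 vs Con (24.8%), 2 in A10-FMT vs Con-FMT (31.5%) and 5 in HS+A10 vs A10 (43%).

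On the deposited scale, the median over all tested genes was shifted in several comparisons. The reason was not tested. The median log2 change was 0.14 in HS vs Con, -0.16 in A10-FMT vs HS and -0.12 in Con-FMT vs HS, and 0.08, -0.18 and -0.10 over the 8 members. The share of called genes that was higher went from 89.4% to 45.0% with median scaling and 55.5% with quantile normalization in HS vs Con, and from 9.03% to 55.3% and 51.4% in A10-FMT vs HS. It went from 19.5% to 40.9% and 44.6% in Con-FMT vs HS, from 40.3% to 61.9% and 57.1% in HS+A10 vs HS, from 35.8% to 57.6% and 54.2% in A10-FMT vs Con-FMT, and from 65.1% to 51.9% and 54.1% in HS+A10 vs A10. No called member changed direction under either scaling.

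**Figure D2:**
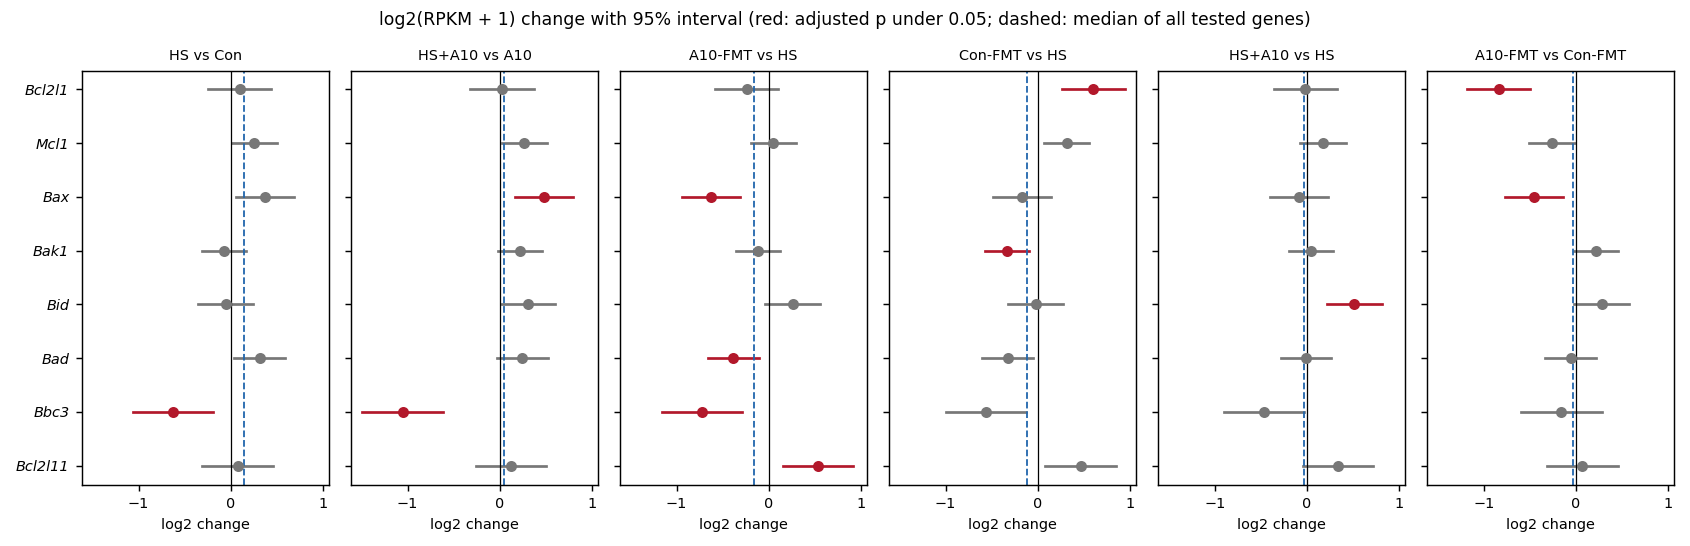
Change on the log2(RPKM + 1) scale with its 95% interval (horizontal axis) for 8 members in 6 comparisons, with called genes in red and the median of all 10204 tested genes as a dashed line. Bbc3 is red on the left in both HS vs Con and HS+A10 vs A10, and Bcl2l1 is red on opposite sides in Con-FMT vs HS and A10-FMT vs Con-FMT.

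Among the guardians, Bcl2l1 stood out in the recipients of control microbiota. Its level was 30.25, 16.82 and 17.97 RPKM in Con-FMT, 14.8, 13.03 and 12.66 in HS and 11.3, 10.3 and 12.3 in A10-FMT. Every Con-FMT library was higher than every other library of the study, where Bcl2l1 lay between 10.3 and 15.3 RPKM, a separation that was seen for 3.62% of all tested genes in the same direction. The change was 0.60 in Con-FMT vs HS (SE 0.16, adjusted p = 0.0143, limma) and -0.84 in A10-FMT vs Con-FMT (SE 0.16, adjusted p = 0.00242, limma). Both calls held without each library in turn and under both scalings, and both were lost when only the 2 groups compared entered the fit (adjusted p = 0.127 and 0.0576). Without Con-FMT replicate 3, the library with acinar transcripts, they were 0.71 (adjusted p = 0.0110) and -0.94 (adjusted p = 0.00256). Con-FMT replicate 1 was the highest library, and without it the Con-FMT vs HS change was 0.35.

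Mcl1, a guardian of short half-life, was called in no comparison. It was 22.6, 21.9 and 23.7 RPKM in Con, 25.9, 25.1 and 25.6 in A10, 26.01, 27.2 and 28.8 in HS and 32.4, 30.2 and 30.3 in HS+A10. The recipients held 27.3, 28.1 and 29.5 RPKM (A10-FMT) and 26.96, 33.72 and 43.58 (Con-FMT). All 12 libraries with diet and STZ (26.01 to 43.6 RPKM) lay above all 6 without (21.9 to 25.9), as 1.61% of all tested genes did. The change was 0.25 in HS vs Con (SE 0.12, adjusted p = 0.133, limma), which was 0.07 with median scaling, and 0.31 in Con-FMT vs HS (SE 0.12, adjusted p = 0.0641, limma). Con-FMT replicate 3 was the highest library, and the latter value was 0.14 without it (adjusted p = 0.267). Without Con-FMT replicate 1 it was called (0.48, adjusted p = 0.00361, limma), as it was with median scaling (0.42, adjusted p = 0.0232) and quantile normalization (0.37, adjusted p = 0.0427). Mcl1 was also called in HS vs Con without Con-FMT replicate 3 or 1 (adjusted p = 0.0356 and 0.0495), in HS+A10 vs A10 without either (0.0248 and 0.0363), and in A10-FMT vs Con-FMT without Con-FMT replicate 1 (adjusted p = 0.00807).

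Bcl2, the founding guardian, was between 0.13 and 0.36 RPKM in all libraries, with the highest value in HS replicate 2. It was 0.23, 0.36 and 0.19 RPKM in HS, 0.16, 0.21 and 0.21 in Con, 0.17, 0.17 and 0.2 in Con-FMT and 0.18, 0.2 and 0.13 in A10-FMT. It was 0.22, 0.24 and 0.24 RPKM in A10 and 0.25, 0.27 and 0.28 in HS+A10. HS overlapped each of the other groups, while A10 lay above Con and HS+A10 above A10 in every library. Both gaps were at the last decimal given: Con reached 0.21 RPKM and A10 began at 0.22, and A10 reached 0.24 and HS+A10 began at 0.25. Leaving out Con replicate 3 and A10 replicate 3 cannot make separated groups overlap, so it does not test this order. Of all tested genes, 24.8% were separated in A10 vs Con and 43% in HS+A10 vs A10. An exact permutation test, two-sided, of 3 libraries against 3 gave p = 0.4 for HS vs Con and p = 0.2 for both recipients against HS. The same exact test gave p = 0.1, the smallest this design allows, for A10 vs Con and for HS+A10 vs A10.

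Of the effectors, Bax was the one that moved with the transplant from AOS-dosed donors. It was 24.49, 19.56 and 20.51 RPKM in A10-FMT, 42.59, 33.17 and 27.01 in HS, 27.98, 24.52 and 25.15 in Con and 28.92, 35.65 and 25.39 in Con-FMT. The A10-FMT libraries lay below all HS and all Con-FMT libraries, while HS replicate 3 was inside the Con range. Bax fell in A10-FMT vs HS (-0.63, SE 0.15, adjusted p = 0.00875, limma) and was lower in A10-FMT vs Con-FMT (-0.45, SE 0.15, adjusted p = 0.0440, limma). The first call held without each library in turn. It was lost with median scaling (-0.44, adjusted p = 0.0765), with quantile normalization (-0.47, adjusted p = 0.0670) and with only the 2 groups in the fit (adjusted p = 0.0584). The second was lost without any 1 of 11 libraries (Con-FMT replicates 1 and 2, A10-FMT replicates 2 and 3, A10 replicates 1, 2 and 3, Con replicates 2 and 3, HS replicate 2 and HS+A10 replicate 3), at adjusted p of 0.0511 to 0.171, with median scaling (-0.38, adjusted p = 0.0931), with quantile normalization (-0.35, adjusted p = 0.125), without a filter (adjusted p = 0.0731) and with only the 2 groups in the fit (adjusted p = 0.102).

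The HS value of Bax was 0.37 above Con (SE 0.15, adjusted p = 0.0908, limma) and was called only without HS replicate 3 (0.52, adjusted p = 0.0306). In the groups given AOS directly, Bax was 23.8, 22.0 and 21.9 RPKM in A10 and 29.0, 36.1 and 30.5 in HS+A10, without overlap. It was higher in HS+A10 vs A10 by 0.47 (SE 0.15, adjusted p = 0.0339, limma). That call was lost without A10 replicate 1, 2 or 3 or HS+A10 replicate 2 or 3, at adjusted p of 0.0534 to 0.127, and with median scaling (adjusted p = 0.0641).

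Bak1, the other effector, varied less, from 6.07 to 10.0 RPKM over all libraries. It was 6.07, 8.40 and 6.53 RPKM in Con-FMT and 8.74, 8.59 and 9.77 in HS, with the highest Con-FMT library just under the lowest HS library. Bak1 was lower in Con-FMT vs HS (-0.34, SE 0.11, adjusted p = 0.0402, limma). The call was lost without any 1 of 8 libraries (Con-FMT replicates 1 and 3, HS replicates 1, 2 and 3, A10 replicates 2 and 3, Con replicate 3), at adjusted p of 0.0502 to 0.154, and with median scaling (-0.23, adjusted p = 0.163). Without Con-FMT replicate 3 the change was -0.30 (adjusted p = 0.105, limma). Bak1 was called in A10-FMT vs Con-FMT only without A10-FMT replicate 3 (0.34, adjusted p = 0.0366) or Con-FMT replicate 2 (0.34, adjusted p = 0.0451).

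Bbc3, which encodes PUMA, a BH3-only protein known as a target of p53, was the most variable member. It was 3.97, 4.18 and 5.54 RPKM in Con, 5.69, 3.74 and 3.95 in A10 and 2.45, 2.25 and 3.10 in HS. In HS+A10 it was 1.43, 1.98 and 1.42 RPKM. The recipients held 1.49, 1.2 and 0.86 (A10-FMT) and 1.21, 0.84 and 2.49 (Con-FMT). All 12 libraries with diet and STZ were below all 6 without, as 1.05% of all tested genes were, with medians of 1.46 and 4.08 RPKM.

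Bbc3 fell in HS vs Con, from 4.56 ± 0.852 to 2.60 ± 0.444 RPKM (SD, n = 3), by 0.62 on the log2 scale (SE 0.21, adjusted p = 0.0471, limma). It was lower in HS+A10 than in A10 by more, 1.61 ± 0.320 against 4.46 ± 1.07 RPKM (-1.05, SE 0.21, adjusted p = 0.00228, limma), and the difference between these 2 changes was not called (-0.43, SE 0.29, adjusted p = 0.544, limma; 0.0098% of all genes were). The call in HS+A10 vs A10 held in every alternative that could test it. The call in HS vs Con was lost without any 1 of 13 libraries (all 3 of Con, HS and HS+A10, A10 replicates 2 and 3, A10-FMT replicate 2, Con-FMT replicate 1), at adjusted p of 0.0521 to 0.159, and was 0.182 without Con replicate 3 and A10 replicate 3. It was kept with median scaling (-0.77, adjusted p = 0.0214) and quantile normalization (-0.77, adjusted p = 0.0172). It was lost with a pseudocount of 0.1, without a filter (adjusted p = 0.0807, limma) and with the replicate block.

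Bbc3 was lower still in A10-FMT than in HS, at 1.18 ± 0.315 RPKM (SD, n = 3), a change of -0.72 (SE 0.21, adjusted p = 0.0209, limma). The groups did not overlap. The call was lost without A10-FMT replicate 2 or 3 or HS replicate 3 (adjusted p of 0.0542 to 0.0899), with median scaling (-0.61, adjusted p = 0.0530) and with quantile normalization (-0.57, adjusted p = 0.0553). In Con-FMT vs HS the change was -0.57 (SE 0.21, adjusted p = 0.0576, limma), and without Con-FMT replicate 3 it was called (-0.83, adjusted p = 0.00512), as it was with a pseudocount of 0.1 (-0.86, adjusted p = 0.0487), while without Con-FMT replicate 2 it was -0.37 (adjusted p = 0.241).

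Bcl2l11, which encodes BIM, was at a low level. Its mean was above that of HS in both recipient groups and in HS+A10, where the mean of Bbc3 was below. In HS vs Con, where Bbc3 fell, Bcl2l11 changed by 0.07 (adjusted p = 0.7975, limma). The recipients held 1.95, 1.74 and 2.33 RPKM (A10-FMT) and 1.48, 3.25 and 1.21 (Con-FMT), against 1.4, 0.92 and 0.93 in HS and 0.81, 1.17 and 0.94 in Con. In A10 it was 1.44, 1.42 and 1.38 RPKM, and in HS+A10 1.64, 1.52 and 1.7. A10-FMT lay above HS in every library. The rise in A10-FMT vs HS was 0.53 (SE 0.18, adjusted p = 0.0435, limma). It was called with both scalings but lost without any 1 of 12 libraries (all 3 of A10-FMT, A10 and HS+A10, HS replicates 2 and 3, Con replicate 3), at adjusted p of 0.0523 to 0.149, with the replicate block (adjusted p = 0.0554) and without a filter (adjusted p = 0.0711). In Con-FMT vs HS it was 0.46 (SE 0.18, adjusted p = 0.0734, limma), and it was called without Con-FMT replicate 3 (0.65, adjusted p = 0.0163) and with quantile normalization (0.65, adjusted p = 0.0261). Con-FMT replicate 2 was the highest library of the study, and without it the change was 0.18 (adjusted p = 0.337).

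Bad, a BH3-only protein held inactive by phosphorylation through growth factor and insulin signals, was 14.5, 13.1 and 10.3 RPKM in HS, 9.72, 9.73 and 8.61 in A10-FMT and 10.8, 8.31 and 10.8 in Con. The A10-FMT libraries were all below the HS libraries, by a small margin at HS replicate 3. Bad was lower in A10-FMT vs HS by -0.39 (SE 0.13, adjusted p = 0.0423, limma), which was lost with median scaling (-0.21, adjusted p = 0.342) and without any 1 of 7 libraries (all 3 of A10-FMT, HS replicates 1 and 2, HS+A10 replicate 1, Con replicate 3), at adjusted p of 0.05 to 0.143. Without HS replicate 3, Bad was also called in HS vs Con (0.44, adjusted p = 0.0384) and in Con-FMT vs HS (-0.46, adjusted p = 0.0240).

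Bid, cleaved by caspase 8 to carry the death receptor signal to mitochondria, was 5.68, 3.93 and 4.71 RPKM in HS+A10 and 3.28, 2.65 and 3.15 in HS. It was the only member called in HS+A10 vs HS (0.51, SE 0.14, adjusted p = 0.0400, limma). The call was lost without any 1 of 6 libraries (HS+A10 replicates 1 and 3, HS replicates 2 and 3, A10 replicate 3, Con replicate 3), at adjusted p of 0.0528 to 0.175. In the other 4 groups Bid lay between 2.10 and 4.29 RPKM.

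**Figure D3:**
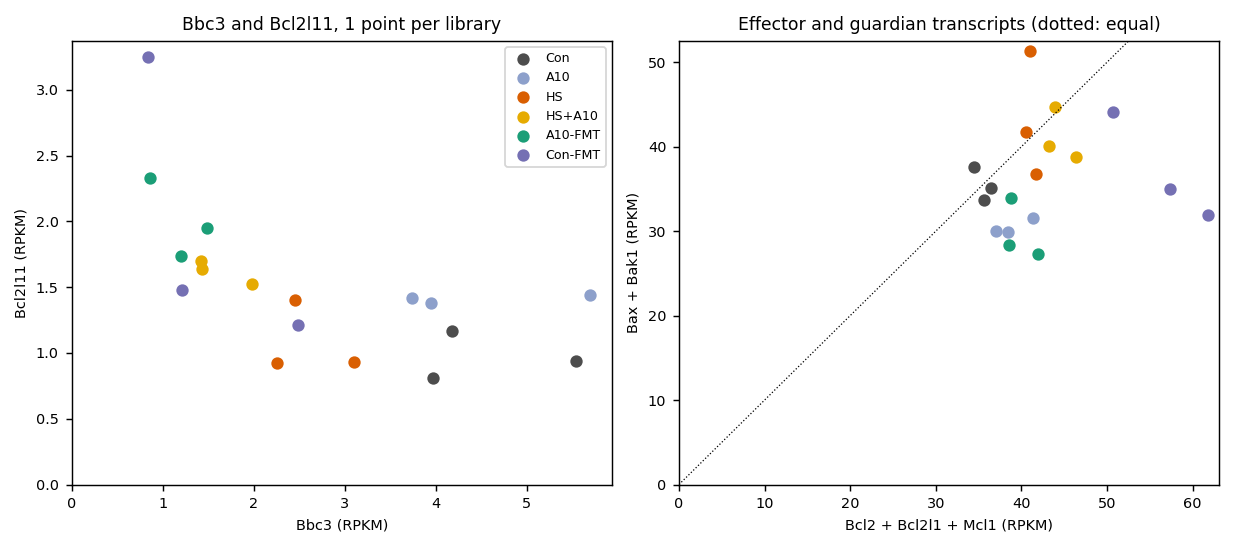
Left, Bcl2l11 against Bbc3 (RPKM) in each library, coloured by group, where the 6 Con and A10 libraries lie apart on the right, at the highest Bbc3. Right, the summed RPKM of the effectors Bax and Bak1 against that of the guardians Bcl2, Bcl2l1 and Mcl1, with a dotted line of equality, where the Con-FMT libraries lie farthest to the right.

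Across the 18 libraries, Bbc3 and Bcl2l11 moved apart (Pearson r = -0.72 over 18 libraries, on the log2 scale), while Bax and Bad moved together (r = 0.68). These values are descriptions, since the libraries fall into groups by diet. RPKM is per length, so levels can be added across genes. The summed effectors Bax and Bak1 were 43.3 ± 7.39 RPKM in HS, 41.2 ± 3.10 in HS+A10, 37.0 ± 6.31 in Con-FMT, 35.5 ± 1.95 in Con, 30.4 ± 0.922 in A10 and 29.8 ± 3.57 in A10-FMT (SD, n = 3). The summed guardians were 56.6 ± 5.56 RPKM in Con-FMT, 44.5 ± 1.66 in HS+A10, 41.1 ± 0.546 in HS, 39.7 ± 1.89 in A10-FMT, 38.9 ± 2.25 in A10 and 35.5 ± 0.999 in Con (SD, n = 3). The ratio of effectors to guardians was 0.883 to 1.25 in HS and 0.946 to 1.09 in Con. It was 0.517 to 0.869 in Con-FMT, 0.650 to 0.875 in A10-FMT, 0.761 to 0.810 in A10 and 0.837 to 1.02 in HS+A10. Without Con-FMT replicate 3, the other two Con-FMT libraries held 57.4 and 50.7 RPKM of guardians and ratios of 0.610 and 0.869. In this ratio the A10-FMT, Con-FMT and A10 libraries all lay below every HS library. For the recipients the margin was small, with highest values of 0.875 and 0.869 against a lowest HS value of 0.883. Of single tested genes, 37.4% did not overlap in A10-FMT vs HS and 35% in Con-FMT vs HS. Against HS, A10-FMT held fewer effector transcripts and Con-FMT more guardian transcripts. The ratio was not tested and says nothing about protein.

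Markers of other cells moved with some of these comparisons. In A10-FMT vs HS, 4 of 6 macrophage and Kupffer cell markers were lower, with sums of 28.6 to 37.9 RPKM in A10-FMT and 44.2 to 76.1 in HS. Of all tested genes, 21% were called lower there. In the same comparison 2 of 5 endothelial, 1 of 4 stellate and 1 of 4 erythroid markers were lower. In Con-FMT vs HS, 3 of 4 erythroid and 2 of 4 stellate markers were lower (19% of all tested genes). Of the endothelial markers, Kdr was lower and Stab2 higher in Con-FMT vs HS (4.61% of all tested genes were higher). In A10-FMT vs Con-FMT, both tested neutrophil markers and 2 of 5 endothelial markers were lower (12% of all tested genes). In HS+A10 vs A10, 4 of 5 endothelial and 3 of 4 stellate markers were higher (13.6%). Endothelial Pecam1 was also higher in HS vs Con (15.9%) and in HS+A10 vs HS (2.95%). Of 2 tested cholangiocyte markers, 1 (Sox9) was lower in A10-FMT vs HS (21%), HS+A10 vs HS (4.37%), A10-FMT vs Con-FMT (12%) and HS+A10 vs A10 (7.28%). Of 6 hepatocyte markers, Cyp2e1 was higher in HS vs Con (15.9%), HS+A10 vs A10 (13.6%), A10-FMT vs HS (2.09%), Con-FMT vs HS (4.61%) and HS+A10 vs HS (2.95%). Cps1 was lower in A10-FMT vs HS (21%) and vs Con-FMT (12%). Tat was higher in HS vs Con (15.9%) and lower in A10-FMT vs Con-FMT (12%). Ttr was lower in HS vs Con (1.87%) and HS+A10 vs A10 (7.28%), and Apoa1 was lower in HS+A10 vs A10 (7.28%). Beside these calls, no marker of proliferating cells reached the filter. Stellate cell markers summed to 106 to 154 RPKM in HS and 65.8 to 77.1 in Con, with 2 of 4 called higher (15.9% of all tested genes). Erythroid markers summed to 2885 to 10038 RPKM in HS and 1256 to 1971 in Con (4 of 4 present), with 1 of 4 called higher (15.9%). Lymphocyte markers summed to 1.67 to 4.87 RPKM over all libraries. The part of these cells in the results was not tested.

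Other genes of the pathway were taken from 5 lists, and the calls given with values are those that held in every alternative that could test them. Beside each count stands the share of all tested genes called in that direction. Of 8 tested other BCL2 family genes, 3 were higher in HS vs Con (15.9%; Bcl2l13, Bnip3l and Bnip3), 2 were higher in HS+A10 vs A10 (13.6%; Bcl2l13 and Bnip3) and 1 was lower in Con-FMT vs HS (19%; Bcl2l12). Bmf, a BH3-only gene, was the 1 gene of this list called higher in A10-FMT vs HS (2.09%), in HS+A10 vs HS (2.95%) and in A10-FMT vs Con-FMT (6.72%). Bmf was 4.6, 4.43 and 4.12 RPKM in A10-FMT, 2.55, 3.03 and 1.72 in HS+A10 and 1.91, 1.91 and 1.72 in A10. Con-FMT held 0.35, 0.36 and 1.28 RPKM, HS 0.56, 0.35 and 0.51, and Con 0.65, 0.85 and 1.2. The A10-FMT libraries were above all others, and HS+A10 lay above HS in every library. The change was 1.87 in A10-FMT vs HS (SE 0.18, adjusted p = 8.45e-05, limma), 1.20 in HS+A10 vs HS (SE 0.18, adjusted p = 0.00376, limma) and 1.74 in A10-FMT vs Con-FMT (SE 0.18, adjusted p = 3.40e-05, limma), while A10 vs Con gave 0.59 (SE 0.18, adjusted p = 0.204, limma). Bcl2l13, a mitophagy receptor, was higher in HS+A10 vs A10 (7.15 ± 0.291 against 5.26 ± 0.369 RPKM (SD, n = 3), adjusted p = 0.00307, limma).

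Of 16 tested genes of the apoptosome, caspases and inhibitors, 2 were higher in HS vs Con (15.9%), 3 were lower in A10-FMT vs HS (21%), and 1 was higher (4.61%) and 2 lower (19%) in Con-FMT vs HS. Of these 16, 1 was lower in A10-FMT vs Con-FMT (12%) and 1 higher in HS+A10 vs A10 (13.6%). Of 10 death receptor genes, 2 were higher (4.61%) and 2 lower (19%) in Con-FMT vs HS, and 2 were higher (6.72%) and 5 lower (12%) in A10-FMT vs Con-FMT. Of these 10, 1 was higher in each of HS vs Con (15.9%) and HS+A10 vs A10 (13.6%), and 2 were lower in A10-FMT vs HS (21%). Tnfrsf1b, a TNF receptor, was 8.60 ± 0.854 RPKM in Con-FMT and 4.25 ± 0.764 in HS (SD, n = 3; adjusted p = 0.00131, limma). Ripk1, a kinase of the same signal, was 6.97 ± 0.412 RPKM in A10-FMT, against 11.2 ± 1.53 in Con-FMT (SD, n = 3; adjusted p = 0.00112, limma). Tnfsf10 (TRAIL) went the other way, with 0.477 ± 0.121 RPKM in Con-FMT and 1.47 ± 0.236 in A10-FMT (SD, n = 3; adjusted p = 6.91e-04, limma). Casp8, the initiator that cleaves BID, was 15.6 ± 0.861 RPKM in HS+A10 and 9.42 ± 0.488 in A10 (SD, n = 3; adjusted p = 0.00138, limma).

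Of 11 partners at the mitochondrial membranes, 2 were higher in HS vs Con (15.9%; Mfn2 and Opa1), 2 lower in A10-FMT vs HS (21%) and 1 lower in Con-FMT vs HS (19%). Of these 11, 2 were higher (13.6%) and 1 lower (7.28%) in HS+A10 vs A10. In each of A10-FMT vs Con-FMT (12%) and HS+A10 vs HS (4.37%), 1 was lower. Mfn2, a fusion protein, was 25.0 ± 2.07 RPKM in HS+A10 and 14.9 ± 0.765 in A10 (SD, n = 3; adjusted p = 8.30e-04, limma). Dnm1l, the fission dynamin, was 11.8 ± 0.629 RPKM in A10-FMT, against 15.9 ± 0.355 in Con-FMT (SD, n = 3; adjusted p = 0.00533, limma). In HS vs Con, 9 genes of the 5 lists were called, and with either scaling 0 were.

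Of 12 tested regulators of the family, 1 was higher (2.09%) and 4 lower (21%) in A10-FMT vs HS, 4 were higher (4.61%) and 2 lower (19%) in Con-FMT vs HS, and 1 was higher (6.72%) and 6 lower (12%) in A10-FMT vs Con-FMT. Of these 12, 1 was higher in HS vs Con (15.9%) and 2 were lower in HS+A10 vs HS (4.37%). In HS+A10 vs A10, 1 was higher (13.6%) and 3 were lower (7.28%). Stat3, known to induce Bcl2l1 and Mcl1, was 31.6, 32.6 and 47.1 RPKM in Con-FMT, 26.5, 27.6 and 28.7 in HS and 17.2, 15.8 and 17.3 in A10-FMT, without overlap. It was 16.89, 17.71 and 18.26 RPKM in HS+A10, 27.59, 19.6 and 23.65 in Con and 27.18, 22.78 and 23.95 in A10. In HS+A10, mean Mcl1 was 31.0 RPKM against 27.3 in HS, and mean Bcl2l1 was 13.3 against 13.5. The part of Stat3 in these levels was not tested. Stat3 fell by 0.69 in A10-FMT vs HS (SE 0.13, adjusted p = 0.00337, limma) and was 1.08 lower on the log2 scale in A10-FMT than in Con-FMT (-1.08, SE 0.13, adjusted p = 1.31e-04, limma). The forkhead genes, known regulators of Bcl2l11 and Bbc3, rose in Con-FMT vs HS, Foxo3 from 5.25 ± 1.22 to 10.0 ± 1.00 RPKM (SD, n = 3; adjusted p = 9.09e-04, limma) and Foxo1 from 6.32 ± 0.415 to 10.00 ± 0.768 RPKM (SD, n = 3; adjusted p = 1.15e-04, limma). Foxo1 was also called higher in HS vs Con, A10-FMT vs HS and HS+A10 vs A10. None of these further calls held in every alternative. Foxo3 was 6.81, 6.45 and 7.74 RPKM in A10-FMT and 7.82, 6.43 and 6.66 in HS+A10. It was 4.06, 5.19 and 6.5 RPKM in HS, and neither comparison was called. In Con-FMT vs HS, Bbc3 changed by -0.57 and Bcl2l11 by 0.46, neither called. The part of the forkhead genes in these levels was not tested. Also in Con-FMT vs HS, Cebpb rose to 164 ± 42.4 from 57.1 ± 13.9 RPKM (SD, n = 3; adjusted p = 9.27e-04, limma), and Stat5a fell to 1.75 ± 0.551 from 4.0 ± 0.676 (SD, n = 3; adjusted p = 0.00227, limma). Rela was lower in A10-FMT than in Con-FMT (20.4 ± 1.70 against 27.4 ± 0.747 RPKM (SD, n = 3), adjusted p = 0.00329, limma). Without Con-FMT replicate 3, the log2 change in Con-FMT vs HS was 0.91 for Foxo3, 0.58 for Foxo1, 1.41 for Cebpb, -1.03 for Stat5a and 0.93 for Tnfrsf1b, and in A10-FMT vs Con-FMT it was -0.43 for Rela and -0.90 for Stat3, all still called.

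**Figure D4:**
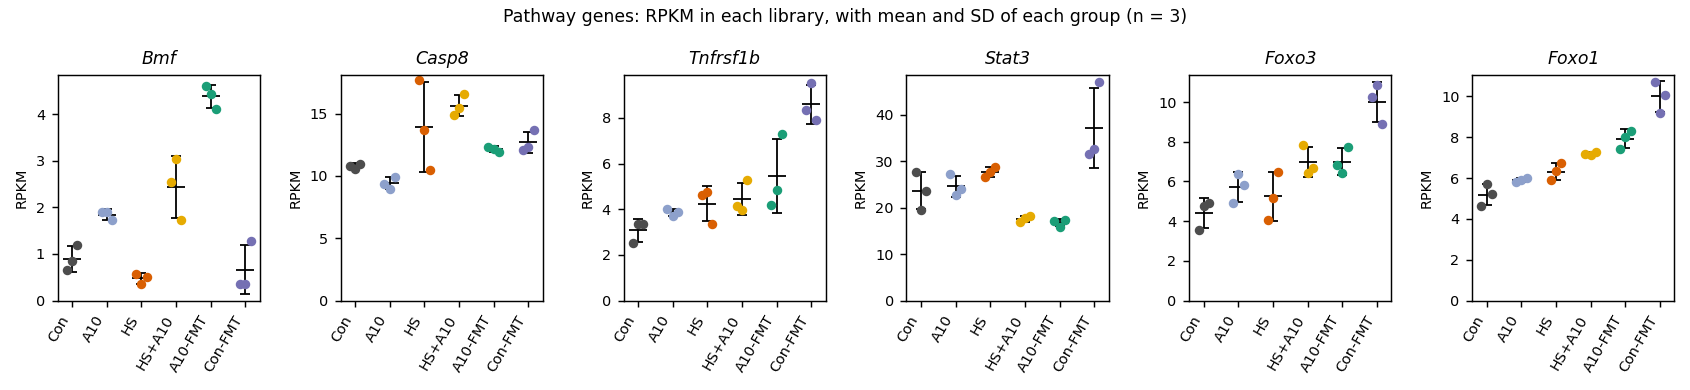
RPKM (vertical axes from 0) of 6 pathway genes in each library (points), with the mean and SD of each group (bars, n = 3). Bmf is highest in A10-FMT, and Stat3, Foxo3 and Tnfrsf1b are highest in Con-FMT.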

How the data were processed

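Liver RNA from 18 libraries in 6 groups of 3 was analysed. Per the paper's methods, mRNA was enriched with oligo(dT) beads and sequenced on an Illumina instrument, reads were mapped to reference genes with SOAPaligner and differences were called with DEGseq, while the submitters' processing notes name Bowtie 0.12.2 and mm10; which mapper made the table was not settled. The authors deposited RPKM values with 2 decimals, whose read depth is unknown, so precision rests on the 3 libraries per group. Duplicated symbols (3) and 26 symbols turned into dates were left as they were.

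The values were used without further scaling, as log2(RPKM + 1), for the 10204 genes averaging 1 RPKM or more. limma 3.58.1 in R 4.3.3 was fitted with 1 mean per group, all 18 libraries and a variance trend, with two-sided p-values adjusted by the Benjamini-Hochberg method. DEGseq needs read counts and was not run. For Bcl2, an exact two-sided permutation test was run. Gene positions were taken from GENCODE vM21 (GRCm38) and promoters from RefSeq (GRCm38.p6), the build of mm10, and figures were drawn in Python 3.11.15.

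The named genes were the 9 members, for each of 5 pathway lists and comparison up to 3 called genes per direction with the smallest adjusted p, and for each called member the 3 genes most like it. Of the pathway genes, those whose call held in every alternative that could test them were given with values, a choice made after the values were seen. A further gene of the rule is not reported here. The members and lists were chosen with earlier results of these data known. Marker lists covered hepatocyte, macrophage and Kupffer, lymphocyte, neutrophil, endothelial, cholangiocyte, stellate, pancreatic acinar, erythroid and proliferating cells. Each result was recomputed without a filter, with a filter at 5 RPKM, with a pseudocount of 0.1, median scaling, quantile normalization, a replicate block, only the groups compared or no variance trend, and with each library left out. The comparison of HS+A10 with A10 and the removal of Con replicate 3 together with A10 replicate 3 were added after seeing the data.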

Additional observations from a re-analysis of the deposited data

How the results depend on the processing

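The count of members called (1 in HS vs Con, 4 in A10-FMT vs HS, 2 in Con-FMT vs HS, 1 in HS+A10 vs HS, 2 in A10-FMT vs Con-FMT and 2 in HS+A10 vs A10) moved as follows. With pseudocount 0.1 it was 0 in HS vs Con. With no filter it was 0 in HS vs Con, 2 in A10-FMT vs HS, 1 in Con-FMT vs HS, 0 in HS+A10 vs HS, 1 in A10-FMT vs Con-FMT and 1 in HS+A10 vs A10. With mean of at least 5 RPKM, where Bid, Bbc3 and Bcl2l11 were not tested, it was 0 in HS vs Con, 2 in A10-FMT vs HS, 0 in HS+A10 vs HS and 1 in HS+A10 vs A10. With median scaling it was 1 in A10-FMT vs HS, 1 in A10-FMT vs Con-FMT and 1 in HS+A10 vs A10. With quantile normalization it was 1 in A10-FMT vs HS, 1 in A10-FMT vs Con-FMT and 1 in HS+A10 vs A10. With only the groups compared in the fit it was 2 in A10-FMT vs HS, 0 in Con-FMT vs HS, 0 in HS+A10 vs HS and 0 in A10-FMT vs Con-FMT. Without Con replicate 3 and A10 replicate 3 it was 0 in HS vs Con, 1 in Con-FMT vs HS, 0 in HS+A10 vs HS, 1 in A10-FMT vs Con-FMT and 1 in HS+A10 vs A10. With a library left out it was 0 to 2 in HS vs Con, 1 to 4 in A10-FMT vs HS, 1 to 3 in Con-FMT vs HS, 0 to 1 in HS+A10 vs HS, 1 to 2 in A10-FMT vs Con-FMT and 1 to 3 in HS+A10 vs A10. In A10 vs Con and in the difference between the changes in HS+A10 vs A10 and HS vs Con it was 0 throughout. Without Con replicate 3 and A10 replicate 3 together, Bcl2l11 lost its call in A10-FMT vs HS (adjusted p = 0.0717, limma). So did Bak1 in Con-FMT vs HS (0.0655) and Bid in HS+A10 vs HS (0.0742). Bax lost its calls in A10-FMT vs Con-FMT (0.0745) and HS+A10 vs A10 (0.1215). The count of pathway genes called (9, 13, 15, 4, 17 and 11 in the same order) moved likewise. With mean of at least 5 RPKM it was 11 in A10-FMT vs Con-FMT. With median scaling it was 0 in HS vs Con, 7 in A10-FMT vs HS and 7 in HS+A10 vs HS. With quantile normalization it was 0 in HS vs Con and 7 in A10-FMT vs HS. With only the groups compared in the fit it was 2 in HS vs Con, 4 in A10-FMT vs HS, 5 in Con-FMT vs HS, 2 in HS+A10 vs HS and 5 in A10-FMT vs Con-FMT. Without Con replicate 3 and A10 replicate 3 it was 1 in HS vs Con, 8 in A10-FMT vs HS and 3 in HS+A10 vs A10. With a library left out it was 3 to 10 in HS vs Con, 5 to 13 in A10-FMT vs HS, 1 to 10 in HS+A10 vs HS, 11 to 18 in A10-FMT vs Con-FMT and 3 to 11 in HS+A10 vs A10. Of the values of single genes under all alternatives, 2708 kept their direction and their side of the threshold, 377 lost a call, 18 gained one and 47 turned, none of them called. With median scaling, changes turned for Bcl2l1 in HS vs Con (-0.078), Bcl2l11 in HS vs Con (-0.017), Bak1 in A10-FMT vs HS (0.054), Bid in Con-FMT vs HS (0.063), Bcl2l1 in HS+A10 vs HS (0.023), Bad in HS+A10 vs HS (0.030), Bcl2l1 in A10 vs Con (-0.021), Bad in A10 vs Con (-0.014), Bad in A10-FMT vs Con-FMT (0.013) and Bcl2l1 in HS+A10 vs A10 (-0.034). With quantile normalization, changes turned for Bcl2l1 in HS vs Con (-0.079), Bcl2l11 in HS vs Con (-0.066), Bak1 in A10-FMT vs HS (0.044), Bid in Con-FMT vs HS (0.13), Bcl2l1 in HS+A10 vs HS (0.014), Bad in HS+A10 vs HS (0.020), Bcl2l1 in A10 vs Con (-0.036), Bad in A10 vs Con (-0.025), Bad in A10-FMT vs Con-FMT (0.012) and Bcl2l1 in HS+A10 vs A10 (-0.029). Without Con replicate 3 and A10 replicate 3 together, changes turned for Bbc3 in A10 vs Con (0.15) and Bcl2l1 in HS+A10 vs A10 (-0.0040), and Bad in A10 vs Con was 0.24. With a library left out, values turned in these ranges: Bid in HS vs Con (-0.12 to 0.016), Bcl2l11 in HS vs Con (-0.032 to 0.14), Bak1 in A10-FMT vs HS (-0.21 to 0.0086), Bid in Con-FMT vs HS (-0.12 to 0.15), Bax in HS+A10 vs HS (-0.24 to 0.080), Bcl2l1 in HS+A10 vs HS (-0.060 to 0.045), Bad in HS+A10 vs HS (-0.14 to 0.085), Bcl2l1 in A10 vs Con (-0.050 to 0.13), Bad in A10 vs Con (-0.051 to 0.19), Bbc3 in A10 vs Con (-0.19 to 0.088), Bbc3 in A10-FMT vs Con-FMT (-0.36 to 0.10), Bcl2l11 in A10-FMT vs Con-FMT (-0.12 to 0.36) and Bcl2l1 in HS+A10 vs A10 (-0.055 to 0.13). Calls of genes with a mean under 5 RPKM could not be kept with that filter, and the cause of the other changes was not tested.

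The median r of deviations was 0.0067 for libraries of the same replicate number and -0.0073 for different numbers. Of the 18 libraries, 10 were closest to a library of their own number. Whether the numbers pair the samples was not tested. With replicate block the count of members called was 0 in HS vs Con, 1 in Con-FMT vs HS and 0 in HS+A10 vs HS, which is the effect of the replicate block. The member calls lost under it were Bbc3 in HS vs Con (adjusted p = 0.0555), Bcl2l11 in A10-FMT vs HS (0.0554), Bak1 in Con-FMT vs HS (0.0570) and Bid in HS+A10 vs HS (0.0511), each from limma with the replicate block.

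Reads per library are not given, and no counting error was computed for genes of low RPKM such as Bcl2. With 3 libraries per group members whose change missed the threshold are not shown to be equal between groups.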

Other observations

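For each member called at least once, the 3 tested genes averaging 5 RPKM or more whose level followed it most closely over the 18 libraries were listed, by Pearson r on the log2 scale among up to 6386 genes. Bbc3 was followed by Tfpi2 (r = 0.93), Tmem37 (r = 0.91) and Lgalsl (r = 0.91). Bax was followed by Tmem82 (r = 0.87), Srxn1 (r = 0.87), the gene of the antioxidant enzyme sulfiredoxin, and Smim8 (r = 0.87). Bad was followed by Plin2 (r = 0.87), a lipid droplet coat gene whose symbol occurs more than once in the table, Slc4a4 (r = 0.83) and Usp30 (r = 0.83), a deubiquitinase of the mitochondrial outer membrane. Bcl2l11 was followed by Rcl1 (r = 0.87), Zpr1 (r = 0.82) and Nfkbia (r = 0.81), the gene of an NF-kB inhibitor. Bcl2l1 was followed by Map3k5 (r = 0.85), a stress kinase, Ccnl1 (r = 0.85) and Lrrc47 (r = 0.84). Bak1 was followed by Rnf135 (r = 0.81), 1700021F05Rik (r = 0.74) and Pdss2 (r = 0.73), and Bid by Hjurp (r = 0.87), Slc25a37 (r = 0.82) and Dsc2 (r = 0.82). The libraries share their groups, so these values describe likeness over 18 libraries and carry no test.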
